A study of Mus musculus with 40 samples.

Results

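The genes described here are the axon guidance ligands and receptors of the mouse embryo. They were taken by gene symbol, as every semaphorin, plexin, Slit, Robo, netrin, Unc5, ephrin, Eph and Flrt gene in the count files. This gave 69 of 26411 genes. These families, and the gene and marker lists used below, were chosen with earlier results of these data known. Shares of called genes among them are therefore descriptive and do not test the sets. There were 20 semaphorins, 9 plexins, 3 Slits, 4 Robos, 4 netrins, 4 Unc5 receptors, 8 ephrins, 14 Eph receptors and 3 Flrt genes. Of these, 67 passed the filter on low counts, and Epha6 and Plxnb3 did not.

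Bulk RNA-sequencing was performed on whole E9.5 embryos (embryonic day 9.5) of 6 genotypes at Kat6a and Kat6b, which encode related histone lysine acetyltransferases, with 4 embryos per genotype. The groups were wild type (WT), Kat6a-/- (labelled Kat6a cfd/cfd), Kat6b-/- (labelled Kat6b dec/dec), Kat6aE/E (G656E/G656E at Kat6a), Kat6bE/E (G577E/G577E at Kat6b) and Kat6aE/E;Kat6bE/E, which carried both point mutations on all alleles. According to the methods of the study, the null alleles lack a stretch of coding exons and were kept on a C57BL/6 background, whereas the glycine to glutamic acid mutations were made by Cas9 in C57BL/6J mice to remove acetyltransferase activity. All embryos were male and were matched for stage by the authors. The design asks how much of the effect of losing KAT6A or KAT6B is also seen when only the enzyme activity is lost. Replicates were single embryos from 17 litters, and the comparisons with WT all shared the same 4 WT libraries. No litter held embryos of different mutant genotypes. Only replicate 2 of Kat6a-/-, replicate 2 of Kat6b-/- and replicate 1 of Kat6aE/E had a WT littermate. No Kat6bE/E or Kat6aE/E;Kat6bE/E embryo had one, so their genotype cannot be told apart from litter in the comparisons with WT.

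Guidance cues steer growing axons and migrating cells by attraction or repulsion. Semaphorins signal through plexins, with neuropilins as co-receptors for most class 3 members. Slits act through Robo receptors, netrins act through DCC and Unc5 receptors, ephrins act through Eph tyrosine kinases, and Flrt proteins bind Unc5 receptors. The same families shape blood vessels, the neural crest and the heart in the embryo at this stage.

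Total counts ranged from 8401990 to 23339359 per library. Kat6a was counted at 160 to 171 CPM (counts per 1000000 counts of the library) in the Kat6a-/- libraries and at 169 to 186 CPM in WT, and Kat6b at 52 to 58.3 CPM in Kat6b-/- and at 38.2 to 42.6 CPM in WT. These counts cover the whole gene, exons outside the deletions included, so they do not check the null genotypes. The library of Kat6aE/E;Kat6bE/E replicate 2 stood apart, with a root mean square deviation from its genotype mean of 0.337 on the log2 CPM scale against 0.178 to 0.258 in the other libraries, and the model gave it a leverage of 0.88. The counts and calls of this genotype are given with and without it. With it left out of the whole model, 9 guidance genes were called in Kat6a-/- against WT, 8 of them shared with the 9 of the full model, and 7 in Kat6aE/E against Kat6a-/-, 6 of them shared with the 8. Markers of the embryo's main cell types were present in every library, with none of the listed marker genes at 0.

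In WT embryos the guidance genes covered a wide range of levels per gene length. Mean RPKM (CPM divided by the gene length in kilobases) was 10 or more for 23 genes and under 0.5 for 5. Plxnb2, a plexin that receives class 4 semaphorins, was highest at 52.1 RPKM ± 1.41 (SD, n = 4). Ephb4, the venous endothelial receptor of ephrin-B2, followed at 40.7 RPKM, and the ephrin Efna2 at 37.7 RPKM. The leading members of the other families were Ntn1 at 27.2 RPKM, Sema4c at 25 RPKM, Flrt3 at 17.3 RPKM, Unc5b at 17.1 RPKM, Robo1 at 11.1 RPKM and Slit3 at 9.44 RPKM. At the lower end, Unc5d was at 0.124 RPKM and Plxnb3 at 0.0258 RPKM, and Epha6 had no read in WT. In this order, 59 of the 68 neighbouring pairs had overlapping WT ranges, so most neighbours could not be ranked against each other. None of the leading members Plxnb2, Ephb4, Efna2, Sema4c, Unc5b, Robo1 and Slit3 was called in any comparison. Plxnb2 stayed between 48.2 and 55.5 RPKM over all 24 libraries.

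**Figure D1:**
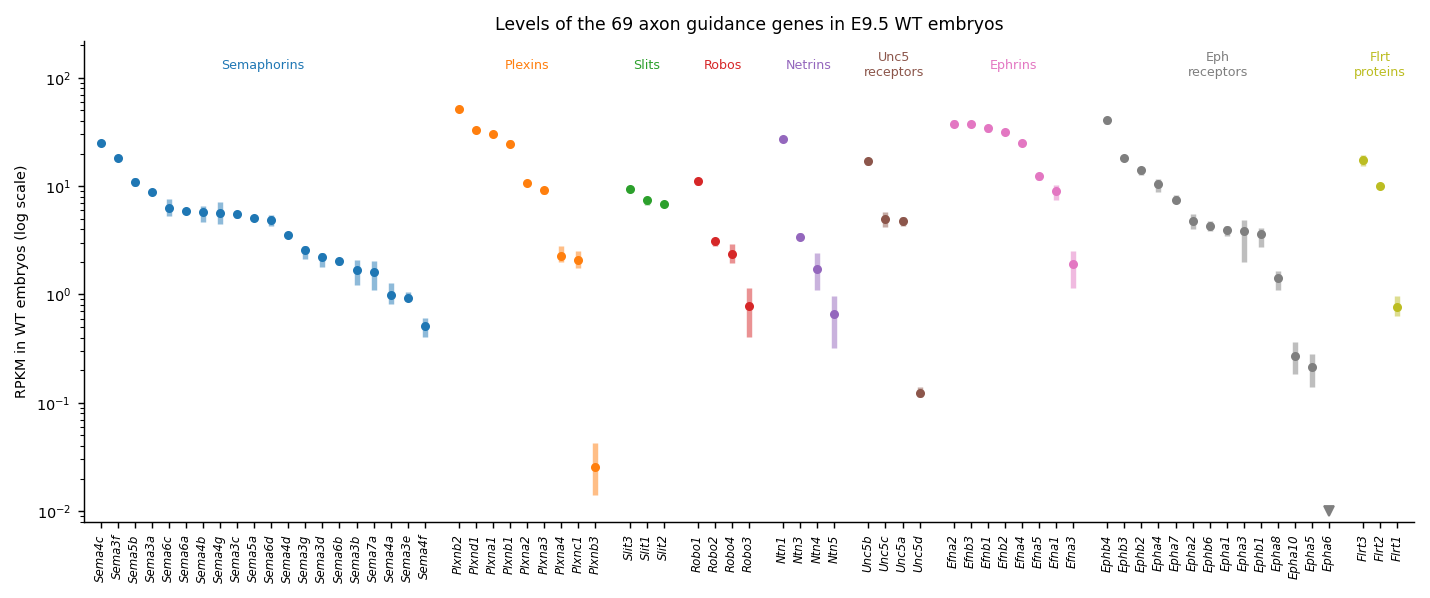
RPKM of each of the 69 guidance genes in the 4 WT embryos, on a log axis and sorted within families; points are means and bars span the lowest to the highest library. Plxnb2 was highest at 52.1 RPKM, Unc5d was at 0.124 RPKM, and the triangle marks Epha6, which had no read in WT.

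In Kat6a-/- embryos against WT, 9 of the 67 tested guidance genes (13.4%) passed a false discovery rate (FDR) of 0.05 in limma, where 2.64% of all 14183 genes tested did. Sema3a, Sema3c, Sema4g, Epha1 and Flrt3 rose, and Sema5b, Sema6d, Ntn1 and Robo3 fell. Most of these changes were modest, from 1.21-fold to 1.6-fold, with Robo3 the exception at 3.19-fold lower. Ligands, counted with the Flrt proteins, made up 7 of the 9 and 38 of the 67 tested. Of the 29 receptors tested 24 had a negative and 5 a positive log2 fold change, with a median of -0.095, beside -0.002 over all genes tested. At an unadjusted p of 0.05, 25 of 67 passed (37.3%, with 16.9% over all genes), and for 15 the 2 groups of embryos did not overlap in CPM (22.4%, with 11.9% over all genes). The count of 9 was 3 with 0 surrogate variables (terms that absorb unexplained variation between libraries), 4 without WT replicate 2 and 5 without WT replicate 3.

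Ntn1 encodes netrin-1, the attractant made by the floor plate of the neural tube. Its level was 153, 167, 151 and 153 CPM in the WT embryos, and 69.3, 105, 90.3 and 94.5 CPM in Kat6a-/-. Every Kat6a-/- embryo was below every WT embryo. The model gave a log2 fold change of -0.68 ± 0.113 (SE, FDR 0.0059), and the call held without any 1 of the 8 libraries. Its gene lies at chr11:68100190-68291662 (GRCm39). The other netrins did not follow, and Ntn4, a basement membrane netrin, differed by -0.15 on the log2 scale (FDR 0.737). The netrin receptor Dcc, from the list of co-receptors, was at 14.6 to 17.6 CPM in WT and at 9.77 to 12.6 CPM in Kat6a-/-, ranges that do not overlap, but its log2 fold change of -0.41 ± 0.203 did not pass (FDR 0.315).

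Sema5b, a transmembrane semaphorin that can repel axons, was at 60.5, 52.1, 60 and 51.3 CPM in WT and at 30.2, 46.6, 36 and 33.4 CPM in Kat6a-/-. Here too the groups did not overlap (log2 fold change -0.45 ± 0.0767, FDR 0.00246), and the call held without any 1 library but not with 0 surrogate variables (FDR 0.0865). Sema6d, a transmembrane semaphorin with known roles in the developing heart, was at 29.8 to 37.3 CPM in WT and at 19.2 to 28.6 CPM in Kat6a-/-. Its ranges lay just apart (-0.35 ± 0.0834, FDR 0.0242), and the FDR rose to between 0.0525 and 0.113 without WT replicate 2, 3 or 4 or Kat6a-/- replicate 1 or 2.

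Robo3, the receptor known for control of midline crossing by commissural axons, was scarce. It was at 2.68, 5.49, 4.65 and 1.93 CPM in WT and at 0.706, 1.73, 0.626 and 0.421 CPM in Kat6a-/-. Every Kat6a-/- embryo was below the lowest WT embryo, but the WT embryos themselves spanned a wide range. The log2 fold change was -1.67 ± 0.401 (FDR 0.0282), and the FDR rose to between 0.0746 and 0.108 without WT replicate 2 or 3 or Kat6a-/- replicate 3 or 4. The other Robo genes and the Slits were not called, with all 7 Robo and Slit genes on the negative side. Slit1 was at 35.1 to 41.2 CPM in WT and 22.4 to 35.7 CPM in Kat6a-/- (-0.32 ± 0.0996, FDR 0.0826), and Slit2 was at 65.6 to 71.8 CPM and 54.3 to 61.4 CPM (-0.21 ± 0.0679, FDR 0.0907).

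Among the genes that rose, Flrt3, an adhesion protein that binds Unc5 receptors and supports FGF signalling, had the smallest FDR. It was at 79, 69.2, 78.7 and 87.8 CPM in WT and at 104, 89.2, 96.5 and 99.9 CPM in Kat6a-/-. The lowest Kat6a-/- embryo was just above the highest WT embryo (0.32 ± 0.0462, FDR 0.000434), and the call held without any 1 library. Epha1, the founding member of the Eph receptor family, was at 12.7, 14.1, 12.9 and 11.5 CPM in WT and at 26.4, 20.4, 18.1 and 18.7 CPM in Kat6a-/-. The groups were clearly apart in CPM (0.46 ± 0.115, FDR 0.0314), although the FDR was 0.0543 to 0.0748 without any 1 of the WT libraries or Kat6a-/- replicate 1. Sema4g was called at 0.28 ± 0.0763 (FDR 0.0465) although its CPM values overlapped, 20.5 to 32.2 in WT and 24.4 to 30.2 in Kat6a-/-. Its FDR was 0.0597 to 0.165 without any 1 of the WT libraries or Kat6a-/- replicate 1, 2 or 3.

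**Figure D2:**
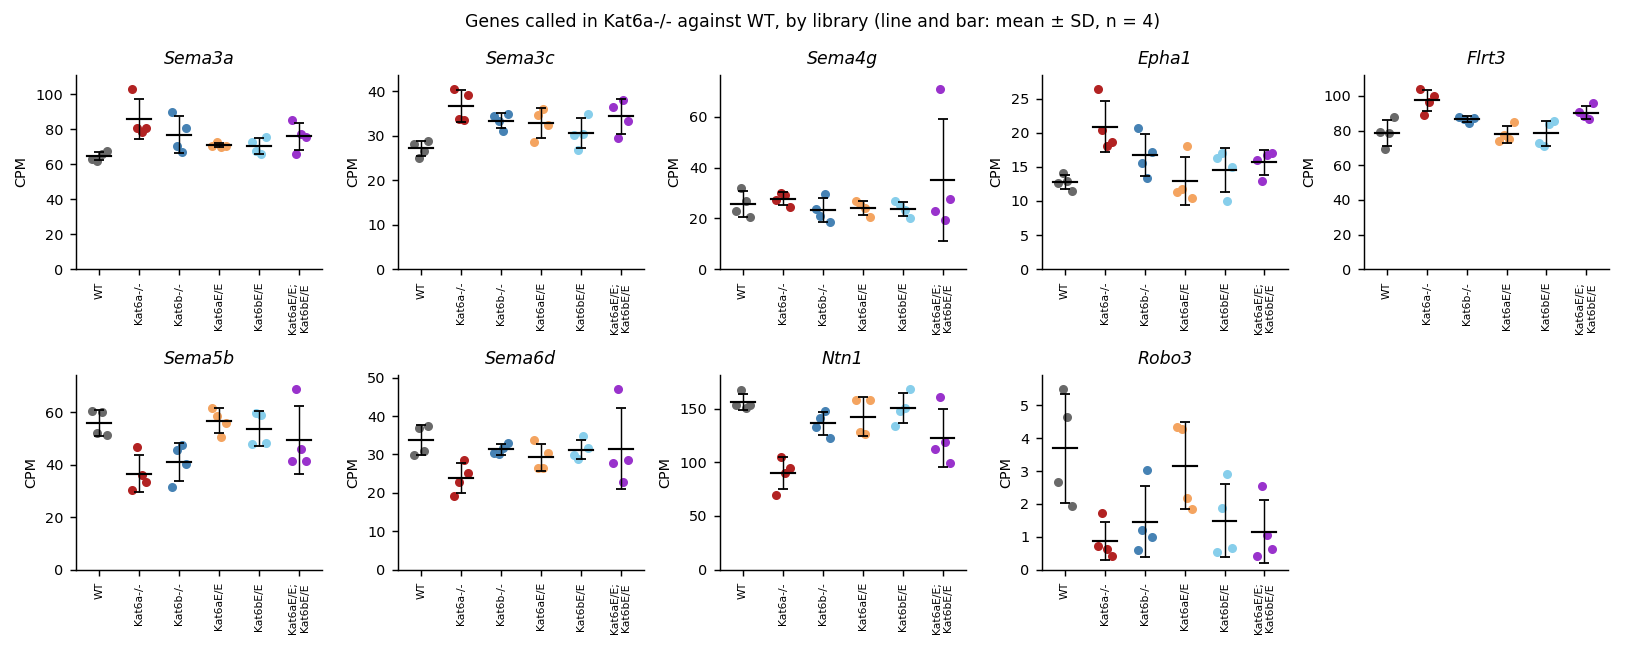
CPM of the 9 guidance genes called in Kat6a-/- against WT, by genotype; each point is 1 embryo, and lines with bars give the mean ± SD of 4 embryos. For Ntn1 the Kat6a-/- embryos lie between 69.3 and 105 CPM and the WT embryos between 151 and 167 CPM.

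The class 3 semaphorins, secreted ligands of plexin and neuropilin complexes, had 2 of 7 called in Kat6a-/-, 2 in Kat6aE/E;Kat6bE/E and none in the other mutant genotypes. The median log2 fold change in Kat6a-/- was 0.317, beside -0.002 over all genes tested. A positive log2 fold change was found for 6 of the 7 in Kat6a-/-, Kat6b-/-, Kat6aE/E and Kat6aE/E;Kat6bE/E and for 4 in Kat6bE/E, all against the same WT libraries. Sema3c, which guides cardiac neural crest cells into the outflow tract, was at 28.2, 25, 26.6 and 28.8 CPM in WT and at 40.5, 33.7, 33.6 and 39.1 CPM in Kat6a-/-. The groups did not overlap (0.37 ± 0.0695, FDR 0.00523), and the call held without any 1 library. Sema3a, the classical collapsing factor for growth cones, was at 63.2, 62, 66 and 67.4 CPM in WT and at 103, 80.9, 78.4 and 80.6 CPM in Kat6a-/- (0.30 ± 0.067, FDR 0.0173). The Kat6a-/- embryos were all higher, replicate 1 most of all, and the FDR was 0.05 to 0.0625 without WT replicate 1, 2 or 3.

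Sema3e, a ligand of plexin D1 in blood vessels, was at 7.27, 6.09, 6.01 and 6.06 CPM in WT and at 12.5, 7.7, 12.4 and 10.4 CPM in Kat6a-/-. It did not pass in this genotype although the groups did not overlap (0.49 ± 0.149, FDR 0.074). In Kat6b-/- it was at 14.1, 10.2, 8.02 and 14.2 CPM, again above all WT embryos (0.60 ± 0.148, FDR 0.061). In Kat6aE/E;Kat6bE/E it was at 10.4, 7.84, 14.9 and 11.6 CPM and was called (0.67 ± 0.142, FDR 0.0114). Sema3d, a repellent expressed in neural crest and heart, was at 11.6 to 15.8 CPM in WT and 16.7 to 19.3 CPM in Kat6a-/- (0.32 ± 0.115, FDR 0.141). Sema3d, Sema3a, Sema3e and Sema3c all lie within 5.50 Mb of chromosome 5, between chr5:12433124-12638929 and chr5:17779219-17935648 (GRCm39). These 4 had a positive log2 fold change in each of the 5 mutant genotypes, which share the WT libraries. Sema3f did not move with them, at 80.7 to 92.8 CPM in WT and 79.8 to 90.7 CPM in Kat6a-/-. Sema3b, on chromosome 9 like Sema3f, was higher in Kat6a-/- without passing (0.47 ± 0.135, FDR 0.0551), with overlapping CPM values. Its FDR there was smaller than those of Sema3e and Sema3d, neither of which was called in Kat6a-/-. The part of chromosome position was not tested. Sema3g was at -0.07 (FDR 0.817). Sema3f and Sema3b were singled out after their values were seen.

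**Figure D3:**
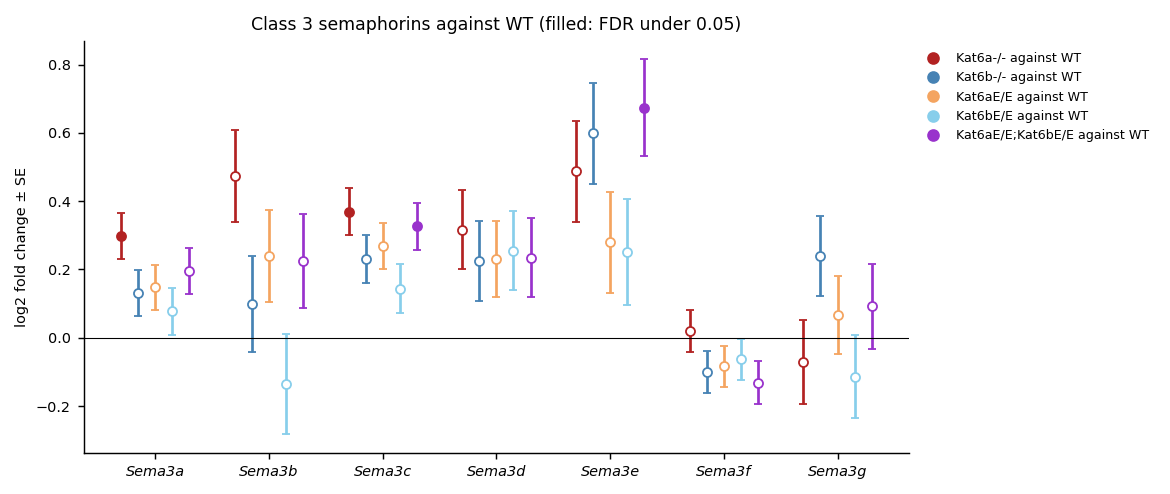
Log2 fold change against WT ± SE of the 7 class 3 semaphorins in the 5 mutant genotypes, filled where the FDR was under 0.05. Sema3a and Sema3c in Kat6a-/- and Sema3c and Sema3e in Kat6aE/E;Kat6bE/E are filled, and all 5 values of Sema3a, Sema3c, Sema3d and Sema3e lie above 0.

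The stretch of 250 bases before the start site is shown for the genes whose calls held without any 1 library in Kat6a-/- and for which RefSeq gave a window, Flrt3 and Sema3c, which rose, and Sema5b, which fell. The sequences and coordinates are those of RefSeq on GRCm38.p6, and capitals mark GGGCGG on either strand (the GC box core), searched together with CCAAT and TATAAA on both strands.
Flrt3, chr2:140671477-140671726, minus strand: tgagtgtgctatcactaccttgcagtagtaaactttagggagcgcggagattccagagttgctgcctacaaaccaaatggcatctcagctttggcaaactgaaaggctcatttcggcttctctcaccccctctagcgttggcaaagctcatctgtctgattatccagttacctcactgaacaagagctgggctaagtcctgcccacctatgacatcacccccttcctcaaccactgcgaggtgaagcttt
Sema3c, chr5:17574566-17574815, plus strand: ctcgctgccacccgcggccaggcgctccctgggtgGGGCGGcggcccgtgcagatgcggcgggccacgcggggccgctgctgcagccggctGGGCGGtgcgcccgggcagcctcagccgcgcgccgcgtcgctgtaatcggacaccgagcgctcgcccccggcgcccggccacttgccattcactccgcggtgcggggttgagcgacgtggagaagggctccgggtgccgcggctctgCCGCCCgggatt
Sema5b, chr16:35541112-35541361, plus strand: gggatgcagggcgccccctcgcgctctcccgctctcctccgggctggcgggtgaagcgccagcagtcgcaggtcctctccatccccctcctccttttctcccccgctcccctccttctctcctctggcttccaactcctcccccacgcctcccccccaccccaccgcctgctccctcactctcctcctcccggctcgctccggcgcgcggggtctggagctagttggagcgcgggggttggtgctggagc

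These windows differed in composition. That of Sema3c held 39 CG dinucleotides and 3 GGGCGG matches at 78.4% G and C, that of Sema5b 19 CG dinucleotides at 72% G and C, and that of Flrt3 5 CG dinucleotides at 50% G and C. None of the 3 held CCAAT or TATAAA, and neither Flrt3 nor Sema5b held GGGCGG. Across the 75 windows of the 59 guidance genes found in the table, 68% held GGGCGG, 26.7% CCAAT and 2.67% TATAAA, beside 32.7%, 33.8% and 12.4% of all 32851 windows. The median was 15 CG dinucleotides per window in the guidance genes and 6 over all windows. All windows came from 27025 genes, not limited to protein-coding or expressed genes, so the sets were not matched for gene type or level. The CG-poor window of Flrt3 and the CG-rich window of Sema3c belonged to genes that changed in the same direction.

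Axon guidance RNA in a whole embryo also follows how many cells make it, and fewer cells of a type and less RNA per cell cannot be told apart in bulk samples. The summed level of 10 neural progenitor markers was 971 to 1030 CPM in WT and 638 to 822 CPM in Kat6a-/-, and 5 of the 10 (Nes, Sox3, Sox2, Irx3 and Pax6) were called lower. Summed endothelial markers (13 genes) were at 513 to 551 CPM in WT and at 345 to 483 CPM in Kat6a-/-, with none called. Their log2 fold changes were negative for 13 of 13 (median -0.255), 11 of them with an unadjusted p under 0.05 (84.6%, with 16.9% over all genes). Paraxial mesoderm markers (8 genes) were at 214 to 255 CPM and 159 to 191 CPM, with Foxc2 called lower. Early neuron markers (11 genes) overlapped, 236 to 463 CPM in WT and 229 to 392 CPM in Kat6a-/-, with Elavl4 called lower. Markers of yolk sac and gut endoderm (8 genes) also overlapped, at 123 to 273 CPM and 154 to 275 CPM, with Epcam called higher, and neural crest markers (8 genes) were at 505 to 527 CPM and 454 to 528 CPM, with none called. Heart muscle markers (8 genes) were at 978 to 1570 CPM in WT and 1010 to 1720 CPM in Kat6a-/-, with 7 of 8 log2 fold changes positive, 4 of them with an unadjusted p under 0.05, and none called. Erythroid markers (8 genes) were at 3740 to 5790 CPM and 4480 to 10100 CPM, with 8 of 8 positive, a median of 0.382 and none called. The part of these cell types in the levels of the called guidance genes was not tested. The vessel receptors Plxnd1 and Robo4, named after their values were seen, were lower in every Kat6a-/- embryo than in any WT embryo. Plxnd1 was at 150 to 195 CPM against 209 to 239 CPM, and Robo4 at 6.35 to 7.26 CPM against 7.34 to 11.1 CPM. Neither passed (FDR 0.0826 and 0.246). Among other vessel receptors, Ephb4 had a log2 fold change of 0.04 (FDR 0.731) and Unc5b of -0.02 (FDR 0.896). All 8 tested plexins had negative log2 fold changes in Kat6a-/-, from -0.29 to -0.01, and none was called.

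The remaining guidance machinery was counted on lists of genes that were no members, chosen with earlier results of these data known. Of 26 tested co-receptors and other guidance cues, 3 fell and none rose in Kat6a-/- (11.5%, with 2.64% over all genes tested), namely the repulsive guidance molecule Rgma (-0.34 ± 0.0715, FDR 0.013), the atypical cadherin Celsr3 (-0.61 ± 0.154, FDR 0.0336) and the adhesion molecule Nrcam (-0.42 ± 0.109, FDR 0.0395). Neither neuropilin was called, with Nrp1 at -0.16 ± 0.111 (FDR 0.527) and Nrp2 at -0.07 ± 0.0517 (FDR 0.533). Of 51 tested cytoplasmic effectors, 5 fell and 1 rose (11.8%). Those that fell were 4 members of the collapsin response mediator family, Crmp1 (-0.42 ± 0.0531, FDR 8.69e-05), Dpysl4 (-0.42 ± 0.0659, FDR 0.00108), Dpysl3 (-0.32 ± 0.0509, FDR 0.00151) and Dpysl5, together with the Slit-Robo effector Srgap3, and Limk2 rose. These cytosolic phosphoproteins act downstream of semaphorins in growth cones. The medians over the tested co-receptors and effectors were -0.150 and -0.042, beside -0.002 over all genes tested.

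In Kat6b-/- embryos no guidance gene was called in limma, where 0.508% of all genes tested were. At an unadjusted p of 0.05, 8 of 67 passed (11.9%, with 12.1% over all genes), and for 7 the groups did not overlap (10.4%, with 6.61% over all genes). The smallest FDRs belonged to Sema3e, described above, and to Sema5b. Sema5b was at 31.4, 45.6, 47.6 and 40.1 CPM in Kat6b-/-, below all WT embryos (-0.29 ± 0.0754, FDR 0.0777). Ntn1 was at 123 to 148 CPM, also below the lowest WT embryo but close to it (-0.15 ± 0.11, FDR 0.646). Sema3e was called by edgeR with 4 surrogate variables (FDR 0.0391) and Sema5b by DESeq2 (FDR 0.0328), 1 guidance gene in each. Both were called when the replicate number was added as a block (FDR 0.0306 for Sema3e and 0.0253 for Sema5b). Of the 51 effectors 1 was called (1.96%), Dpysl4, which was lower (-0.29 ± 0.0659, FDR 0.043), and of the co-receptor list none. Neural progenitor markers summed to 686 to 899 CPM beside 971 to 1030 CPM in WT, without overlap. Of these markers 10 of 10 were negative (median -0.205), 4 with an unadjusted p under 0.05, and none was called. Early neuron markers summed to 210 to 365 CPM beside 236 to 463 CPM in WT, with 9 of 11 negative (median -0.229) and Tubb3 called lower (-0.41 ± 0.084, FDR 0.0316). Erythroid markers summed to 3530 to 12900 CPM, with 8 of 8 positive (median 0.542) and none called. The part of these cell types was not tested.

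In the single point mutants no guidance gene was called in limma. For Kat6aE/E against WT, 0.275% of all genes tested were called, 5 of 67 guidance genes had an unadjusted p under 0.05 (10% over all genes), and for 1 the groups did not overlap (1.49%, with 4.94% over all genes). Sema3c came nearest, at 28.5, 34.6, 36.1 and 32.4 CPM (0.27 ± 0.0678, FDR 0.0885), with the lowest embryo inside the WT range. Unc5b, a netrin receptor of vessels and neural crest, was at 95.2, 84.3, 89.5 and 79.6 CPM against 91.8 to 104 CPM in WT and did not pass either. For Kat6bE/E against WT, 0% of all genes tested were called, 2 guidance genes, Robo3 and Sema3d, had an unadjusted p under 0.05 (4.41% over all genes), and for 1 gene the groups did not overlap (2.31% over all genes). Robo3 was at 0.54, 1.88, 2.91 and 0.643 CPM (-1.39 ± 0.37, FDR 0.998), which overlapped WT. DESeq2 and edgeR with 4 surrogate variables also called no guidance gene in either point mutant. On simulated counts of 14111 genes with these library sizes, the same model recovered 73% of changes of 0.5 and 97% of changes of 1 on the log2 scale in Kat6aE/E. The simulated libraries were independent, without litter effects, and scarce genes such as Robo3 were given no change. Recovery of smaller changes, or of changes in scarce genes, was therefore not measured.

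**Figure D4:**
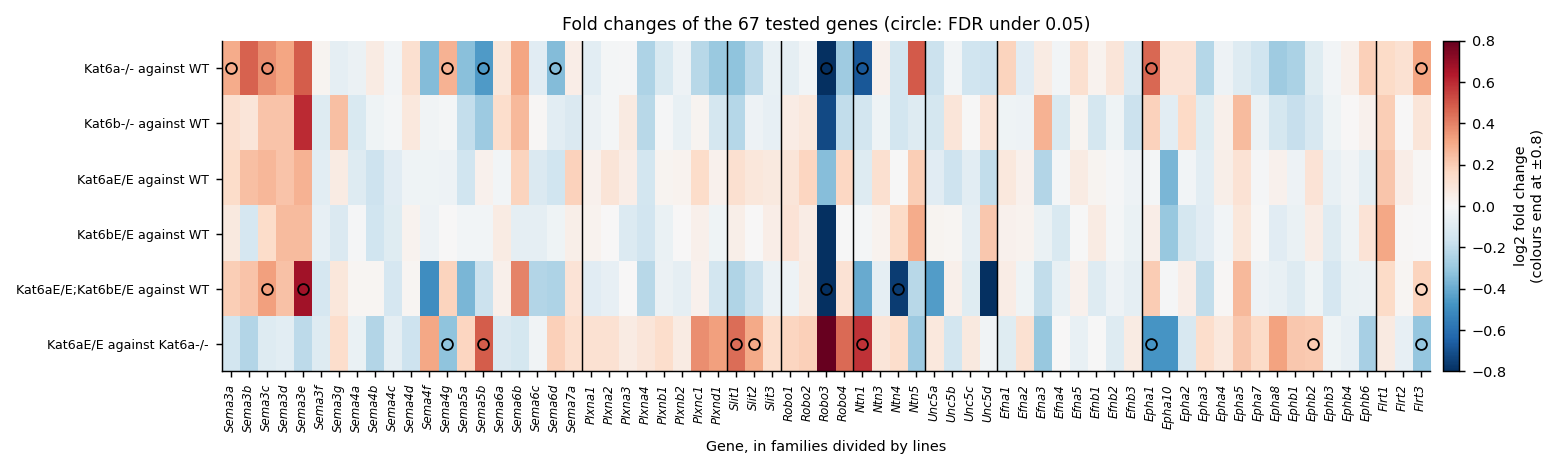
Log2 fold changes of the 67 tested guidance genes (columns, by family) in the 5 comparisons with WT and in Kat6aE/E against Kat6a-/- (rows), with circles where the FDR was under 0.05. There are 9 circles in Kat6a-/-, 5 in Kat6aE/E;Kat6bE/E and 8 in the comparison of Kat6aE/E with Kat6a-/-, and colours end at 0.8 on either side.

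When both acetyltransferases carried the point mutation, 5 of 67 guidance genes were called (7.46%, with 2.91% over all genes tested). At an unadjusted p of 0.05, 21 passed (31.3%, with 18.2% over all genes), and for 5 the groups did not overlap (7.46%, with 7.31% over all genes). Sema3c, Sema3e and Flrt3 rose and Robo3 and Ntn4 fell. Sema3c was at 36.5, 29.4, 38.1 and 33.3 CPM in Kat6aE/E;Kat6bE/E, above all WT embryos (0.33 ± 0.0688, FDR 0.0114). Flrt3 was at 90.7, 88.4, 86.7 and 95.8 CPM, with 1 WT embryo inside this range (0.18 ± 0.0469, FDR 0.0397). Robo3 was at 0.403, 2.54, 1.05 and 0.623 CPM, where replicate 2 lay within the WT range (-1.68 ± 0.455, FDR 0.0448). Ntn4 was at 2.77, 2.82, 2.03 and 1.81 CPM against 2.63 to 5.83 CPM in WT, so the groups overlapped (-0.76 ± 0.203, FDR 0.0397). Its raw counts were few, at 29 to 48 per library against 40 to 68 in WT. Ntn1 was at 112, 161, 119 and 98.9 CPM and did not pass (-0.40 ± 0.114, FDR 0.0682), with only replicate 2 in the WT range.

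These calls depended on the model and on single libraries. With 0 surrogate variables, no gene of the whole table was called in Kat6aE/E;Kat6bE/E, and hence no guidance gene. The count of guidance genes fell to 0 without WT replicate 3, 1 without WT replicate 2, 2 without Kat6aE/E;Kat6bE/E replicate 4 and 3 without replicate 1, and rose to 8 without replicate 3. Without replicate 2, the library that stood apart, the count was 4, of which 3 were among the 5, namely Sema3c (FDR 0.024), Sema3e (FDR 0.0196) and Ntn4 (FDR 0.0475). Flrt3 and Robo3 then had FDRs of 0.0678 and 0.0555. By gene, the highest FDRs without 1 library were 0.0557 for Sema3c and Sema3e (WT replicate 3), 0.152 for Ntn4 and 0.158 for Flrt3 (both WT replicate 2) and 0.117 for Robo3 (WT replicate 3). That library, replicate 2 of Kat6aE/E;Kat6bE/E, was the highest of its genotype for Sema5b at 68.8 CPM, Slit1 at 53.8 CPM, Slit2 at 70.7 CPM, Sema4g at 71 CPM, Sema6d at 47 CPM and Ntn1 at 161 CPM. Without it 18 guidance genes had an unadjusted p under 0.05 (26.9%, with 16.1% over all genes), for 17 the groups did not overlap (25.4%, with 16.2% over all genes), and Ntn1 again did not pass (-0.47 ± 0.128, FDR 0.0854). The fourth gene called without it was the netrin receptor Unc5a (-0.57 ± 0.138, FDR 0.0369), named after its values were seen.

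On the list of co-receptors, 4 of 26 fell in Kat6aE/E;Kat6bE/E (15.4%, with 2.91% over all genes tested), namely Rgma, Rgmb, Gpc1 and L1cam, with a median log2 fold change of -0.137 over the list. Without replicate 2 only Rgma was called (3.85%, with 1.53% over all genes), with FDRs of 0.0513 for Rgmb, 0.0592 for L1cam and 0.149 for Gpc1. Of the 51 effectors Dpysl4, Crmp1 and Dpysl3 fell (5.88%), with a median of -0.031 over the list, and these 3 were called without replicate 2 as well. Paraxial mesoderm markers summed to 171 to 223 CPM beside 214 to 255 CPM in WT, with 8 of 8 negative (median -0.396), 6 of them with an unadjusted p under 0.05, and Uncx (-1.0 ± 0.185, FDR 0.00557) and Foxc2 (-0.37 ± 0.0982, FDR 0.0445) called lower. Without replicate 2 the sums were 171 to 180 CPM, and Uncx was called (FDR 0.0111) but not Foxc2 (FDR 0.0552). Heart muscle markers summed to 1410 to 1670 CPM beside 978 to 1570 CPM in WT, with 7 of 8 positive and Tnnt2 called higher (0.36 ± 0.091, FDR 0.0415), which did not pass without replicate 2 (FDR 0.0833). Neural progenitor markers summed to 804 to 898 CPM beside 971 to 1030 CPM in WT, with 10 of 10 negative and none called. The part of these cell types in the guidance genes' levels was not tested.

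The direct comparison of Kat6aE/E with Kat6a-/- embryos tested whether these groups differed. No litter held both genotypes, and the alleles came from separately made mouse lines. Effects of the allele therefore cannot be told apart from those of litter or line. Of 67 guidance genes 8 were called (11.9%, with 1.6% over all genes tested). At an unadjusted p of 0.05, 24 passed (35.8%, with 15.6% over all genes), and for 13 the groups did not overlap (19.4%, with 8.35% over all genes). Sema5b, Slit1, Slit2, Ntn1 and Ephb2 were higher in Kat6aE/E, and Sema4g, Epha1 and Flrt3 were lower. Of the 31 receptors, 29 were tested and 21 had a positive log2 fold change, with a median of 0.122, beside -0.004 over all genes tested. The count of 8 was 1 with 0 surrogate variables and 13 with 6, and 3 without Kat6aE/E replicate 1, 4 without Kat6aE/E replicate 4 or Kat6a-/- replicate 2, and 5 without Kat6aE/E replicate 2 or Kat6a-/- replicate 1 or 3.

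Ntn1 was at 158, 128, 126 and 158 CPM in Kat6aE/E, above every Kat6a-/- embryo, which reached at most 105 CPM (0.58 ± 0.117, FDR 0.0242). Sema5b was at 61.8, 58.7, 50.6 and 56 CPM, also above every Kat6a-/- embryo (0.49 ± 0.0789, FDR 0.00247). Flrt3 was at 73.8, 77.7, 75.1 and 84.7 CPM, below the lowest Kat6a-/- embryo at 89.2 CPM (-0.31 ± 0.0474, FDR 0.00148). For these genes Kat6aE/E embryos overlapped WT. The calls of Sema5b and Flrt3 held without any 1 library, but both were lost with 0 surrogate variables (FDR 0.071 and 0.0595). That of Ntn1 held with 0 surrogate variables (FDR 0.0406). Its FDR was 0.0512 to 0.0726 without Kat6a-/- replicate 3 or Kat6aE/E replicate 1 or 4.

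The Slits are repellents at the midline. Slit1 was at 46.4, 36.9, 38.3 and 43.2 CPM in Kat6aE/E and 24.3, 35.7, 22.4 and 26.5 CPM in Kat6a-/-, without overlap (0.45 ± 0.102, FDR 0.0264). Slit2 was at 58.4 to 84.5 CPM in Kat6aE/E and 54.3 to 61.4 CPM in Kat6a-/-, with overlap (0.30 ± 0.0692, FDR 0.0248). Ephb2, a receptor of B-type ephrins, was at 153 to 191 CPM and 125 to 151 CPM, without overlap (0.21 ± 0.0497, FDR 0.0324). The FDR of these 3 rose above 0.05 without single libraries, to 0.0927 for Slit1 (Kat6a-/- replicates 1, 3 and 4), 0.142 for Slit2 (Kat6a-/- replicates 2, 3 and 4 and Kat6aE/E replicates 1, 2 and 4) and 0.109 for Ephb2 (replicates 1 and 2 of both genotypes and Kat6a-/- replicate 4).

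Epha1 was at 11.3, 11.8, 18.1 and 10.5 CPM in Kat6aE/E, with replicate 3 as high as the lowest Kat6a-/- embryo (-0.47 ± 0.115, FDR 0.0344). Sema4g was at 20.4 to 26.7 CPM, overlapping Kat6a-/- (-0.32 ± 0.0783, FDR 0.0343). Without single libraries the highest FDRs were 0.0786 for Epha1 (losing the call without Kat6a-/- replicate 1 or 2 or Kat6aE/E replicate 1, 2 or 4) and 0.105 for Sema4g (Kat6a-/- replicate 2 or 3 or Kat6aE/E replicate 1 or 4). All 8 plexins had positive log2 fold changes here, from 0.06 to 0.37, with none called. With only the 8 libraries of this comparison and no surrogate variables, 0 guidance genes and 3 genes of the whole table were called.

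**Figure D5:**
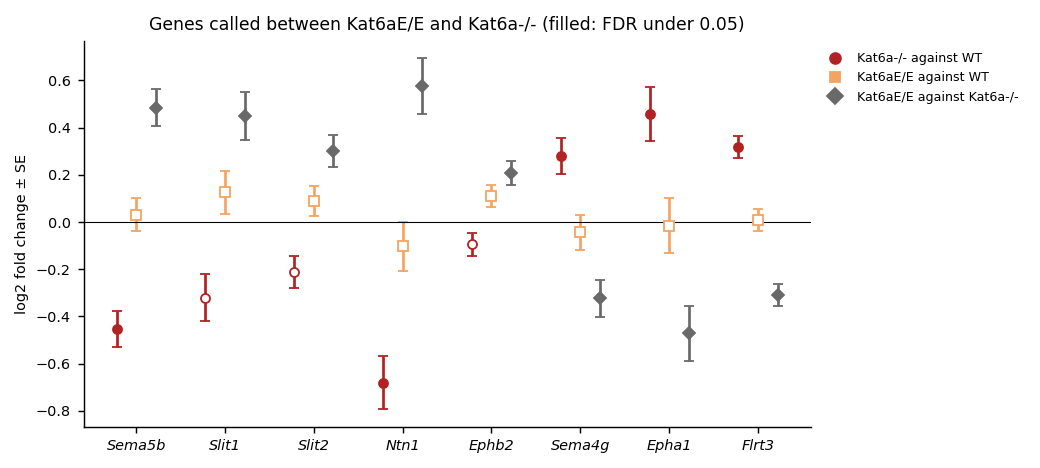
Log2 fold change ± SE of the 8 guidance genes called between Kat6aE/E and Kat6a-/-, shown with both genotypes against WT and filled where the FDR was under 0.05. The Kat6aE/E values against WT lie between -0.10 and 0.13 and all are open, and the 3 comparisons share libraries in pairs.

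In the same comparison 5 of 51 effectors, Crmp1, Dpysl3, Dpysl4, Dpysl5 and Srgap3, were called higher in Kat6aE/E (9.8%, with 1.6% over all genes tested). Of the co-receptor list 1 of 26 was called (3.85%), Nrcam, at 22.4 to 31.5 CPM in Kat6aE/E and 14.1 to 19.4 CPM in Kat6a-/- (0.57 ± 0.111, FDR 0.00952). The medians over the effectors and the co-receptor list were 0.065 and 0.134. Neural progenitor markers summed to 854 to 1040 CPM in Kat6aE/E and to 638 to 822 CPM in Kat6a-/-, with Nes called higher, and the early neuron genes Dcx, Elavl4 and Nefl were called higher. Endothelial markers summed to 470 to 561 CPM and 345 to 483 CPM, with 13 of 13 positive and Eng called higher. Their part in the difference was not tested.

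No guidance gene was called in limma or edgeR between Kat6bE/E and Kat6b-/- (0.0353% of all genes tested were, in limma), and DESeq2 called 2. At an unadjusted p of 0.05, 11 of 67 passed (16.4%, with 8.83% over all genes), and for 6 the groups did not overlap (8.96%, with 3.5% over all genes). Sema5b was higher in every Kat6bE/E embryo, at 47.8, 59.9, 59 and 48.2 CPM, than in the Kat6b-/- embryos, which reached at most 47.6 CPM (0.26 ± 0.0771, FDR 0.29). Between Kat6aE/E;Kat6bE/E and Kat6a-/- none was called in limma, edgeR or DESeq2 (0.00705% of all genes tested were, in limma), 11 of 67 had an unadjusted p under 0.05 (10.4% over all genes), and for 5 the groups did not overlap (6.68% over all genes). Without replicate 2 of Kat6aE/E;Kat6bE/E none was called either, 9 of 67 had an unadjusted p under 0.05 (9.76% over all genes), and for 6 the groups did not overlap (11.9% over all genes). Ntn4 was among those that did not overlap, with a range of 1.81 to 2.82 CPM below that of 3.04 to 4.38 CPM (-0.61 ± 0.211, FDR 0.311, and 0.303 without replicate 2).

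Genes near the mutated loci were looked at by position. Unc5d, a netrin receptor gene, lies 5.70 Mb from Kat6a on chromosome 8, Efnb2 lies 14.64 Mb from it, and Sema3g lies 9.22 Mb from Kat6b on chromosome 14. None of the 3 was called in any comparison. Unc5d was at 1.3, 1.03, 1.18 and 1.07 CPM in WT and at 0.403, 0.825, 0.787 and 0.623 CPM in Kat6aE/E;Kat6bE/E, lower in every embryo but at few counts (-0.87 ± 0.341, FDR 0.16, and 0.207 without replicate 2). In Kat6aE/E alone it was at 1.25, 0.733, 0.651 and 1.35 CPM and in Kat6a-/- at 1.15, 1.33, 1.17 and 0.515 CPM, both overlapping WT.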

How the data were processed

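RNA from 24 whole E9.5 embryos was sequenced by the authors as read pairs with an unstranded kit, aligned to the mm39 genome with Rsubread and counted per RefSeq gene with featureCounts. The deposited values are raw counts per gene and library, with gene length. Genes were reduced to protein-coding genes without Y-linked genes (52 of 26411 had no match in the RefSeq gene table of GRCm38.p6, used for gene types only), filtered with filterByExpr (edgeR 4.0.16, minimum count 10) to 14183 genes, and scaled by TMM. As in the methods of the study, 4 surrogate variables were estimated, and voomLmFit (limma 3.58.1, R 4.3.3) was fitted to all 24 libraries with litter as a random block (correlation 0.107) and robust empirical Bayes moderation. FDR was taken over all genes tested, and genes under 0.05 were called. CPM use TMM-scaled library sizes, and RPKM also divides by the gene length of the files. Each genotype had 4 embryos in separate libraries, and no 2 libraries of the same genotype agreed within sampling noise.

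The members and the gene and marker lists were chosen with earlier results of these data known. Genes were named if called in a comparison, if among the 2 smallest p-values in a comparison with WT, or if highest in their family in WT. Exceptions were Sema3f, Sema3b, Unc5a, Plxnd1, Robo4 and the genes near Kat6a and Kat6b (Unc5d, Efnb2 and Sema3g). Genes of the lists were named mainly if called. Alternatives were 0, 2 or 6 surrogate variables, no litter block, edgeR, DESeq2 1.42.0, other scaling, no filter, all gene types, the replicate number as a block, only the compared libraries and leaving out each library. The model was tested on simulated data. A stretch of 250 bases before the start site came from RefSeq (GRCm38.p6), and gene positions from GENCODE (GRCm39, the build mm39). Libraries from E14.5 fetal liver were not used here. The labels and the methods name different sequencers for these libraries.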

Additional observations from a re-analysis of the deposited data

Results flagged for a closer look

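Among the 22 named genes, 132 groups of 4 libraries were examined for a library far from the other 3, and 11 were found, where chance gives about 1 in 20, or 6.6. Of these, 4 were Kat6aE/E;Kat6bE/E replicate 2, which was high for Sema5b at 68.8 CPM (the others at 41.3 to 45.9), Slit1 at 53.8 CPM (26.6 to 30.2), Sema4g at 71 CPM (19.4 to 27.8) and Slit2 at 70.7 CPM (56 to 58.2). In WT, replicate 4 was low for Unc5b at 91.8 CPM (102 to 104), replicate 2 was high for Ntn1 at 167 CPM (151 to 153) and replicate 1 was high for Sema3e at 7.27 CPM (6.01 to 6.09). Kat6a-/- replicate 1 was high for Sema3a at 103 CPM (78.4 to 80.9). Kat6aE/E replicate 2 was high for Efna2 at 98.3 CPM (80.2 to 82.3), and replicate 3 for Epha1 at 18.1 CPM (10.5 to 11.8). Kat6aE/E;Kat6bE/E replicate 4 was high for Plxnb2 at 354 CPM, with the others all at 339 CPM.

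Levels differed between Kat6aE/E and Kat6a-/- embryos by a direct test for 8 genes. No litter held both genotypes, so the alleles cannot be told apart from litter or mouse line. The log2 fold change of Kat6aE/E against Kat6a-/- was 0.58 for Ntn1, 0.49 for Sema5b, 0.45 for Slit1, 0.30 for Slit2, 0.21 for Ephb2, -0.31 for Flrt3, -0.32 for Sema4g and -0.47 for Epha1 (limma, FDR under 0.05 in each).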

How the results depend on the processing

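Over 559 re-computed results of single named genes none changed direction, 424 stayed on the same side of the FDR threshold, 125 lost the call and 10 gained it. In Kat6a-/- against WT, Flrt3, Ntn1 and Sema3c were called under all 20 alternatives, Sema5b under 18 and Sema4g under 5. The number of members called there moved from 9 to 3 with 0 surrogate variables, 5 with 2 surrogate variables, 5 with edgeR without surrogate variables, and 4 to 10 when 1 library was left out. In Kat6aE/E;Kat6bE/E against WT it moved from 5 to 0 with 0 surrogate variables, 0 with edgeR without surrogate variables and 0 with only the 8 libraries compared, and ran from 0 to 8 when 1 library was left out. In Kat6aE/E against Kat6a-/- it moved from 8 to 1 with 0 surrogate variables, 13 with 6, 2 with edgeR without surrogate variables and 0 with only the 8 libraries compared, and ran from 3 to 10 when 1 library was left out. In Kat6b-/- against WT it moved from 0 to 2 with 6 surrogate variables, 1 with edgeR and 4 surrogate variables, 1 with DESeq2, 1 with no filter and 2 with all gene types. In Kat6aE/E against WT it moved from 0 to 1 with 6 surrogate variables and to 1 with Kat6aE/E;Kat6bE/E replicate 2 left out of the whole fit, a setting chosen after seeing the data, and ran from 0 to 1 when 1 library was left out. In Kat6bE/E against Kat6b-/- it moved from 0 to 1 with 6 surrogate variables, 2 with DESeq2 and 1 with all gene types. The number of different co-receptor and effector genes called in at least 1 of the 8 comparisons moved from 12 to 4 with 0 surrogate variables and 5 with edgeR without surrogate variables. The causes were not tested.

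Deviations of same-numbered samples correlated between -0.15 and 0.31, and none shared a litter. For replicate 4 the correlation was positive in every comparison, from 0.06 to 0.31, although the comparisons share libraries. For the other replicate numbers the signs were mixed. Correlations of this size cannot show that same-numbered samples have nothing but the number in common. With the replicate block, 2 members were called in Kat6b-/- against WT, and the other counts stayed within 1.5 times. In the simulated comparison of Kat6b-/- with WT, 73% of changes of 0.5 on the log2 scale were recovered, so smaller changes may be missed. The simulation held no litter effects and no changes in scarce genes, so recovery in these embryos may be lower.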
